A study of Mus musculus with 20 samples.

Results

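Interleukins are secreted proteins through which leukocytes, stromal cells and epithelia signal to each other, and most act through receptors built from a private chain and a chain shared by several cytokines. The shared chains define families: the common gamma chain serves interleukins 2, 4, 7, 9, 15 and 21, gp130 serves interleukins 6 and 11, and the interleukin 12 and 10 families have shared chains of their own. Most of these receptors signal through Janus kinases and STAT transcription factors, while interleukin 17 receptors recruit the adaptor Act1 and interleukin 18 receptors recruit MyD88. The genes described here are the rows of the deposited table whose symbol starts with Il and a digit, leaving out 11 named genes, most of them of the interleukin 1 family. The rule kept 72 of 23402 rows, 35 of them ligands and 37 receptor chains. The rule did not remove the whole interleukin 1 superfamily: 10 of the 72 rows belong to it, among them both chains of the interleukin 18 receptor. The row named Il8 carries the Entrez number of Cxcl15, a mouse chemokine gene, and is not an interleukin by that number.

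RNA was measured in 20 libraries from tumours grown under the skin of mice from MC38 cells, a murine line of colon adenocarcinoma. The Control group held 10 libraries of tumours given vehicle, and the P.T.ATBx group, called treated here, held 10 of tumours given ATBx around the tumour. The labels do not spell out ATBx. All tumours came from the 1 line. Agent, dose, schedule, and the strain, sex and age of the mice are not stated in the labels. By its title the study concerns microbes in the tumour and the interferon response. The question here is how cytokine and receptor RNA differed with the treatment. Whether every library is a separate animal is not stated, and p-values therefore reflect only the variation among libraries, some of which may be technical.

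Levels are FPKM, fragment counts scaled to gene length and to the fragments mapped in the library, which corrects for gene length. Read totals are not in the table, and the spacing of low values put the relative depth of the libraries between 0.818 and 1.30 times their median. Relative depth averaged 1.06 in Control and 0.979 in treated libraries (two-sided permutation p = 0.175). Its part in how often scarce genes were listed at 0 was not tested. The labels call the cells cancer cells, yet the libraries held RNA of many cell types: Ptprc, the pan-leukocyte marker, ran from 28.2 to 59.2 FPKM, and the fibroblast collagen gene Col3a1 from 1470 to 2530. Of 9 epithelial and colon markers, Cdx2 was listed at 0 in all libraries, and Krt20, Cdx1 and Vil1 stayed under the filter used for testing. The other 5, Epcam, Cdh1, Krt8, Krt18 and Krt19, passed it, and the keratin gene Krt19 ran from 0.428 to 64.6 FPKM. In such bulk tissue, fewer cells of a type and less RNA per cell cannot be told apart. Together, the RNase component genes Rpph1 and Rmrp made up 14.8% to 20.5% of the FPKM sum in Control 1, Control 3, P.T.ATBx 1 and P.T.ATBx 4, and at most 14.0% in the other libraries. Leaving these 4 out left 0 of the 72 genes called, as with all libraries.

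No interleukin or receptor gene passed the adjusted threshold. Of the 72 genes, 33 had a mean of at least 0.5 FPKM over the 20 libraries and were tested, and 0 were higher and 0 lower in the treated group with adjusted p under 0.05 (limma on log2(FPKM + 1), Benjamini-Hochberg over 12788 rows). Over all rows, 0.845% were called, 0.461% higher and 0.383% lower. At an unadjusted p under 0.05 there were 6 of the 33, or 18.2%, against 13.6% of all rows: 4 were lower (7.51% of all rows were higher and 6.08% lower at this level) and 2 higher. The genes nearest to a call were Il18rap, a chain of the interleukin 18 receptor, at a log2 fold change of −0.36, and Il34, a ligand of the macrophage growth factor receptor, at −0.18. The groups of libraries overlapped in all 33 genes tested, and over all rows 0.133% had groups that did not overlap. The median log2 fold change was −0.05 over the 33 genes and 0.00 over all rows, and 25 of the 33 (75.8%) were negative against 48.5% of all rows. These shares are descriptions, since genes that follow the same cells are not independent. Each fold change is the treated mean less the Control mean of log2(FPKM + 1), a scale that understates the change of low genes.

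Receptor chains were far more abundant than ligands. Of 37 receptor chains 24 reached the filter, 11 of them above 10 FPKM on average, while of 35 ligands 9 reached it and 2 stood above 10. The mean FPKM summed to 326.0 over receptor chains and to 51.5 over ligands. The lowest gene that was tested was Il10 at 0.521 FPKM, and the highest below the filter was Il1f9 at 0.349. A further 8 genes, Il9, Il20, Il22, Il25, Il31, Il1f8, Il1f10 and Il11ra2, were listed at 0 in all 20 libraries.

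**Figure D1:**
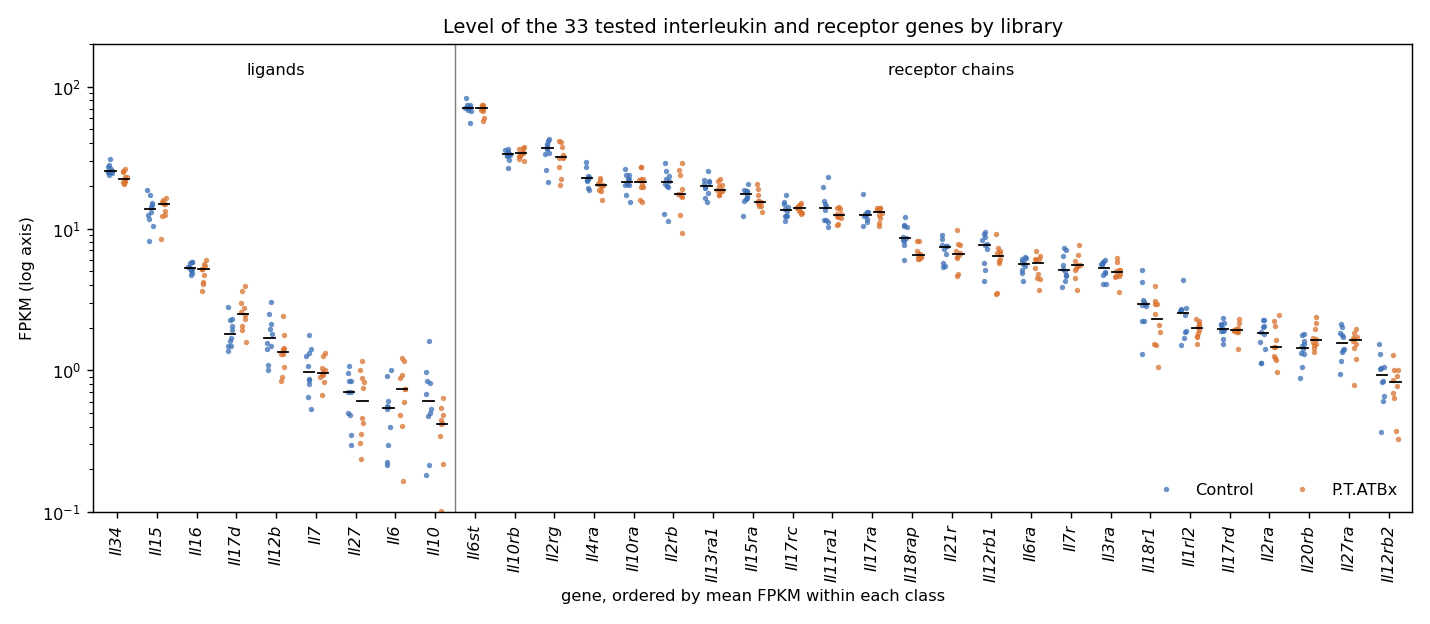
FPKM on a log axis (vertical) of the 33 tested genes (horizontal), ligands left and receptor chains right, each point 1 library (blue Control, orange P.T.ATBx, 10 each) and each bar a group median. Il6st stands highest and Il34 is the most abundant ligand. The points of both groups overlap for every gene, and the 1 P.T.ATBx library with Il10 listed at 0 is not drawn.

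The gene that came closest to a difference was Il18rap, a chain of the interleukin 18 receptor. It encodes the accessory chain, which completes the signalling complex on natural killer and T cells (Entrez 16174, chromosome 1, 40515362 to 40551707, GRCm38). Its level was 5.99 FPKM in the lowest Control library, 8.64 at the median and 12.1 in the highest, against 6.05, 6.47 and 8.17 in treated tumours. All 10 treated libraries lay below the Control median, yet the lowest library of all was a Control library, so the groups overlapped. The mean was 9.09 ± 1.79 and 6.76 ± 0.776 FPKM (SD, n = 10 each). On the log2 scale the difference was −0.36 (SE 0.09, 95% interval −0.55 to −0.18, adjusted p = 0.0509, limma). Leaving out Control 1 (adjusted p = 0.0329, limma), Control 2 (adjusted p = 0.0063, limma), P.T.ATBx 5 (adjusted p = 0.0426, limma) or P.T.ATBx 6 (adjusted p = 0.0383, limma) brought it past the threshold. A fit with Ptprc as a covariate gave −0.35 (adjusted p = 0.00804, limma), and over 32 fits it was called in 8, with adjusted p from 0.0063 to 0.157.

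Il18r1, the chain that binds interleukin 18 (chromosome 1, 40465552 to 40500854), lies beside Il18rap. It had 1.30, 2.92 and 5.06 FPKM in the lowest, median and highest Control library and 1.06, 2.29 and 3.96 in treated tumours. The ranges overlapped over most of their length, and the log2 difference was −0.25 (SE 0.16, adjusted p = 0.533, limma). Across libraries the chains moved together in Control (Pearson r = 0.76, permutation p = 0.0130, adjusted p = 0.0357, and Spearman rho = 0.75, permutation p = 0.0177, adjusted p = 0.0433, n = 10) and in treated tumours (r = 0.71, permutation p = 0.0189, adjusted p = 0.0417, and rho = 0.71, permutation p = 0.0279, adjusted p = 0.0613, n = 10). Without the 2 libraries farthest from the median of Il18r1, r was 0.49 and 0.50, so part of the relation rested on them. In treated tumours it did not pass with a pseudocount of 0.1 (adjusted permutation p = 0.0547). Adjustment was over 22 relations, 11 pairs of genes in each group.

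Markers of natural killer and T cells were read beside this receptor. The 4 natural killer markers summed to 10.4 to 44.2 FPKM in Control and 13.1 to 40.0 in treated tumours, with 3 of 4 positive and a median log2 fold change of 0.14. The 6 T cell markers summed to 19.0 to 51.9 and 13.7 to 38.5 FPKM, with 5 of 6 negative and a median of −0.23. None of these 10 markers passed the adjusted threshold by limma. The part of the RNA of these or other cell types in the Il18rap values was not tested.

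The upstream sequences of this neighbouring pair are shown as reference for the gene nearest to a call and its partner. They are the 250 bases before the most upstream annotated start in RefSeq GRCm38.p6, both on the + strand, at chr1:40465302-40465551 for Il18r1 and chr1:40515112-40515361 for Il18rap. Capitals mark the motif GGAAATTCC.
Il18r1: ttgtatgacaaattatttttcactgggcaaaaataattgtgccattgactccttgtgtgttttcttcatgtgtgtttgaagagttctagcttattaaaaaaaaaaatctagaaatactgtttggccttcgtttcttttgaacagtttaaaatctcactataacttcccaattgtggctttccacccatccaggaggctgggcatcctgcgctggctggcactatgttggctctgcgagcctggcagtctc
Il18rap: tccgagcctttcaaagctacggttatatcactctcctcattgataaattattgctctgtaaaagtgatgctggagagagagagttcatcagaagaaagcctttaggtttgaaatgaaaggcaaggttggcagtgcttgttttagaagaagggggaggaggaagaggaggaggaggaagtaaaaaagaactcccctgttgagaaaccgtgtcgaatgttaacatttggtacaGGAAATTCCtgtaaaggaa
The motif TTCNNNGAA, a consensus of STAT binding and its own reverse complement, is in neither window, and forms with another spacing were not searched. It was in 7 of 65 windows of the 55 matched genes (10.8%), among them a window at another annotated start of Il18r1 and windows of Il7r and Il12rb2, and in 7.02% of all 32851 windows of this length. The motif GGAAATTCC, searched on both strands and chosen after the sequence was seen, is an NF-kB type sequence. It occurred once in the Il18rap window, in 3 of the 65 windows (those of Il18rap, Il1rl2 and Il16) and in 0.286% of all windows. These matches describe letters and say nothing of binding.

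Il1rl2, the third tested gene of the interleukin 1 superfamily, encodes the interleukin 36 receptor. All 10 treated libraries lay below the Control median here too, at 1.53, 1.97 and 2.29 FPKM (lowest, median, highest) against 1.5, 2.54 and 4.35. All treated libraries lay within the Control range, whose upper end was Control 3 alone, with the next at 2.77 FPKM. The log2 fold change was −0.20 (SE 0.10, adjusted p = 0.401, limma), and it was −0.13 without Control 3 and −0.09 without the 4 libraries of high Rpph1 and Rmrp share. The 5 ligand genes of the superfamily, Il1f5, Il1f6, Il1f8, Il1f9 and Il1f10, were all below the filter, and the neuronal receptor genes Il1rapl1 and Il1rapl2 were as well.

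**Figure D2:**
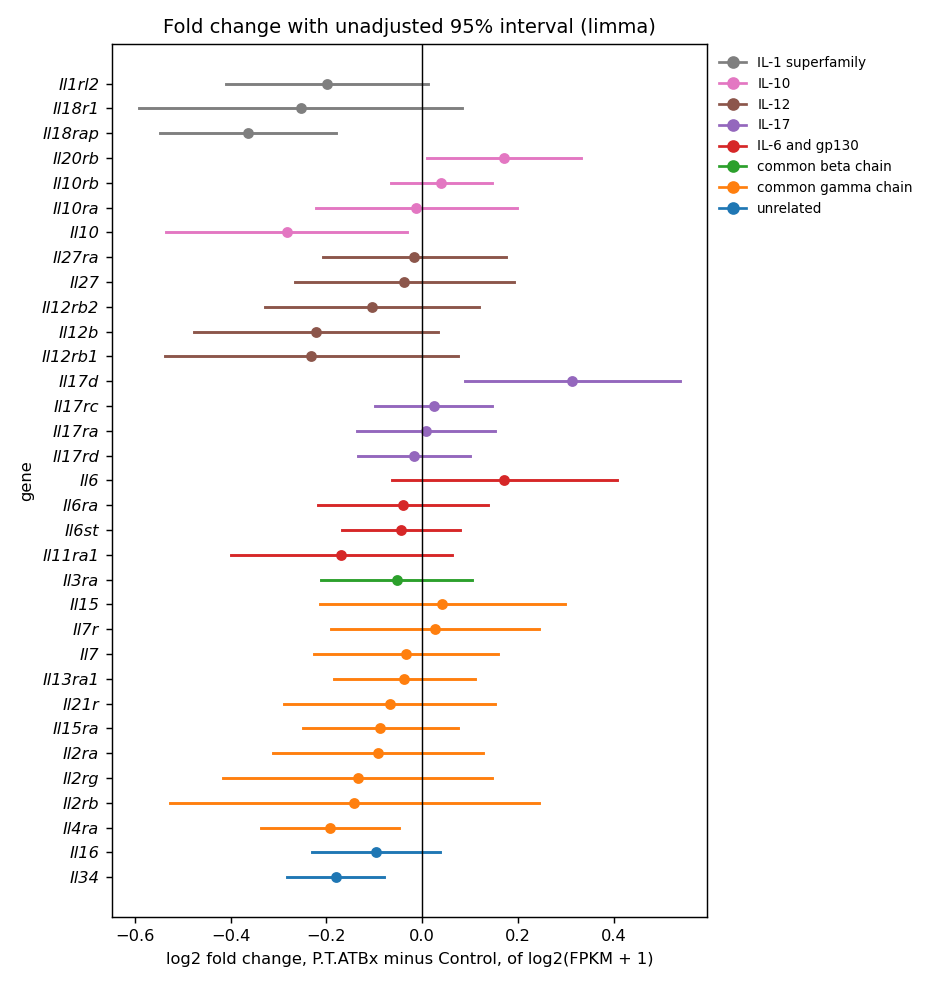
Log2 fold change (horizontal, P.T.ATBx minus Control) with its unadjusted 95% interval from limma for each tested gene (vertical), coloured by family. Intervals of Il18rap, Il34, Il4ra and Il10 lie wholly below 0 and those of Il17d and Il20rb wholly above it, and none of the 33 passed after adjustment.

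The common gamma chain family had 8 tested receptor chains. Il2rg, the shared chain itself, had 21.2, 36.9 and 42.5 FPKM in the lowest, median and highest Control library and 20.3, 31.9 and 41.1 in treated tumours (log2 fold change −0.14, 95% interval −0.42 to 0.15, adjusted p = 0.713, limma). Il2rb, the signalling chain for interleukins 2 and 15, had 11.4, 21.2 and 28.8 against 9.23, 17.5 and 29.1 FPKM (−0.14, 95% interval −0.53 to 0.24, adjusted p = 0.790, limma), the widest interval of the 33 genes. Without P.T.ATBx 2 the values were −0.07 for Il2rg and −0.04 for Il2rb, without Control 2 Il2rg had −0.21, and without Control 3 Il2rb had −0.23. Both varied widely within each group, and the ranges nearly coincided. Il2ra, the high-affinity chain of regulatory and activated T cells, was low at 1.75 ± 0.421 and 1.59 ± 0.492 FPKM (SD, n = 10 each). Of the 8 tested receptor chains of this family 7 had negative log2 fold changes, from −0.19 to −0.04, Il7r had 0.03, and 0 passed.

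Il4ra, which binds interleukin 4 and pairs with either Il2rg or Il13ra1, was the lowest of the family in fold change. It had 18.7, 22.6 and 29.3 FPKM in Control and 15.9, 20.2 and 22.6 in treated tumours (lowest, median, highest). In 9 of 10 treated libraries it lay below the Control median, and 3 of them lay below all Control libraries. The log2 fold change was −0.19 (SE 0.07, 95% interval −0.34 to −0.05, p = 0.0111, adjusted p = 0.202, limma), and −0.13 without the 4 libraries of high Rpph1 and Rmrp share. Its partner Il13ra1 was at 19.9 ± 2.95 and 19.3 ± 1.75 FPKM (−0.04, adjusted p = 0.863, limma). Il13ra2, the decoy for interleukin 13, was under the filter, from 0 to 1.63 FPKM with the highest value in Control 10.

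The ligands Il4 and Il13, which define type 2 responses, were near the lower limit of the table. Il4 was listed at 0 in 4 Control and 6 treated libraries and reached 0.630 and 0.279 FPKM (two-sided permutation p = 0.217). Il13 was listed at 0 in 3 and 5 libraries and reached 0.329 and 0.160 FPKM (permutation p = 0.142). Neither differed past the threshold, and Il5 stayed at or under 0.0984 FPKM. Downstream of their receptor, 1 of 9 tested STAT6 targets was lower and 0 were higher, beside 0.383% and 0.461% of all rows. The lower gene was Arg1, the arginine-degrading enzyme. Arg1 went from 72.2 ± 43.6 to 18.8 ± 12.6 FPKM (log2 fold change −1.97, SE 0.35, adjusted p = 0.00622, limma). Retnla, another gene of alternatively activated macrophages, had −1.86 (SE 0.49, adjusted p = 0.0752, limma). In the STAT6 target list 8 of 9 values were negative and their median was −0.43, beside 0.00 for all rows. Arg1 has many other regulators, and the cause of its lower level was not tested.

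Interleukin 15, a growth factor of natural killer and memory T cells, was the most abundant ligand of this family. Il15 had 8.18, 13.7 and 18.5 FPKM in Control and 8.48, 14.8 and 16.5 in treated tumours, and Il15ra, which presents it to lymphocytes, had 12.3, 17.5 and 20.5 against 13.2, 15.5 and 20.4 (lowest, median, highest). The log2 fold changes were 0.04 (95% interval −0.21 to 0.30, adjusted p = 0.918, limma) and −0.09 (95% interval −0.25 to 0.07, adjusted p = 0.673, limma). The direction of Il15 turned to −0.03 without Control 3. Levels of the ligand and its presenting chain showed no relation across libraries (r = 0.16 in Control, permutation p = 0.649, rho = −0.03, permutation p = 0.945, and r = 0.20 in treated tumours, permutation p = 0.575, rho = −0.03, permutation p = 0.947, n = 10 each, adjusted p = 0.785 and 0.744). Without the 2 farthest libraries r was 0.42 and −0.27.

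Il7, a survival factor for lymphocytes, was at 1.06 ± 0.387 and 0.987 ± 0.190 FPKM, and its receptor Il7r at 5.41 ± 1.17 and 5.52 ± 1.09 (SD, n = 10 each). Il21r, the interleukin 21 receptor, stood at 7.04 ± 1.23 and 6.72 ± 1.49. These genes lay outside the rule for named genes and were chosen after their values were seen. The same holds for Il2ra, Il13ra2, Il5, Il16, Il27ra and all further genes given only as a mean ± SD or a range. Il2, the T cell growth factor, was listed at 0 in 1 Control and 4 treated libraries and at most at 0.268 FPKM (permutation p = 0.3). Il9 was listed at 0 throughout and Il21 did not exceed 0.0875 FPKM.

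The interleukin 6 family was led by its shared chain. Il6st (gp130) was the most abundant of the 72 genes, at 55.4, 71.3 and 83.7 FPKM in the lowest, median and highest Control library and 57.4, 70.2 and 74.5 in treated tumours. The Control range enclosed all treated libraries, with a log2 fold change of −0.04 (95% interval −0.17 to 0.08, adjusted p = 0.798, limma). Il6ra, the private chain, was at 5.55 ± 0.648 and 5.42 ± 1.04 FPKM. Il11ra1, the interleukin 11 receptor, had 10.2, 14.0 and 23.1 against 10.6, 12.5 and 14.1 FPKM, with its highest value in Control 3 (log2 fold change −0.17, 95% interval −0.40 to 0.06, adjusted p = 0.549, limma, −0.09 without Control 3 and −0.04 without the 4 libraries of high Rpph1 and Rmrp share). The near-identical copy Il11ra2 was listed at 0, and Il11ra1 overlaps Ccl27a, so the split of reads among these genes is uncertain.

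The ligands of this family were scarce beside their receptors. Il6, an acute-phase cytokine, had 0.215, 0.542 and 1.01 FPKM in Control and 0.167, 0.737 and 1.22 in treated tumours. In 7 of 10 treated libraries it lay above the Control median, 2 of them above all Control libraries and 1 library below all of them (log2 fold change 0.17, 95% interval −0.06 to 0.41, adjusted p = 0.551, limma). It was 0.39 with a pseudocount of 0.1 and 0.08 with arrayWeights. Il11 reached at most 0.373 FPKM and Il31 was listed at 0. Il6 and Il11 showed no relation past the threshold across libraries in either group (r = 0.28 and 0.12, permutation p = 0.431 and 0.747, rho = 0.25 and −0.07, permutation p = 0.491 and 0.866, n = 10 each, and r = 0.17 and 0.47 without the 2 farthest libraries). Of 9 tested STAT3 targets 0 passed in either direction, 7 were negative and the median was −0.21. Timp1, an inhibitor of matrix proteases, had −0.25 (adjusted p = 0.306, limma) and the kinase gene Pim1 −0.25 (adjusted p = 0.317, limma).

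**Figure D3:**
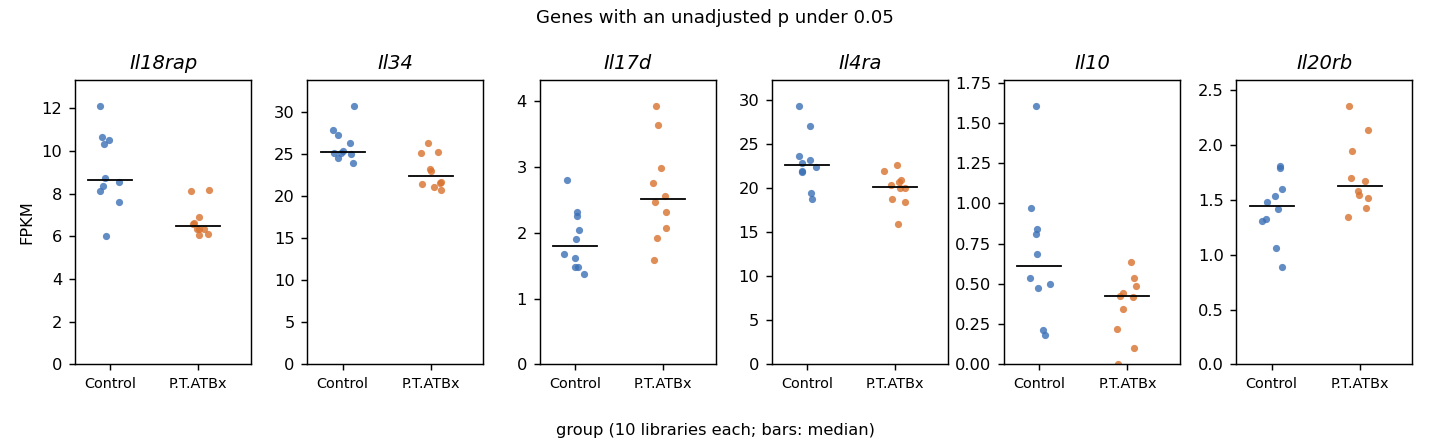
FPKM (vertical, from 0) of the 6 genes with an unadjusted p under 0.05, 1 point per library in Control (blue) and P.T.ATBx (orange), with medians as black bars. Il18rap, Il34, Il4ra and Il10 have lower medians in P.T.ATBx and Il17d and Il20rb higher ones, and the groups overlap in each.

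The interleukin 12 family, which links dendritic cells and macrophages to type 1 lymphocyte responses, had 5 tested genes, none past the threshold. All 5 values were negative, but those of Il27 and Il27ra lay near 0 and changed sign in 2 of 31 and 8 of 32 fits. Il12b, the p40 subunit shared by interleukins 12 and 23, had 1.00, 1.69 and 3.06 FPKM in Control and 0.835, 1.35 and 2.41 in treated tumours (log2 fold change −0.22, 95% interval −0.48 to 0.03, adjusted p = 0.447, limma, and −0.34 with a pseudocount of 0.1). Below the Control median lay 8 of 10 treated libraries, inside a wide overlap. Il12rb1, its receptor chain on lymphocytes, had 4.29, 7.68 and 9.5 against 3.47, 6.39 and 9.11 FPKM (−0.23, 95% interval −0.54 to 0.07, adjusted p = 0.529, limma), with 9 of 10 below the Control median. The second receptor chain, Il12rb2, was at 0.925 ± 0.342 and 0.787 ± 0.293 FPKM, and overlaps Serbp1, so that its reads may not all be its own.

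The private subunits were much lower than p40. Il12a (p35) was listed at 0 in 4 Control and 7 treated libraries and reached 0.221 and 0.112 FPKM (permutation p = 0.261). Il23a (p19) was listed at 0 in 3 libraries of each group and reached 0.103 and 0.194 FPKM, with 5 treated libraries above all Control libraries (permutation p = 0.0714). Of these, P.T.ATBx 7 (0.1029 FPKM) and P.T.ATBx 9 (0.1035 FPKM) barely exceeded the highest Control library (0.1028 FPKM). Il27 (p28) had 0.298, 0.703 and 1.07 FPKM against 0.238, 0.609 and 1.17 (log2 fold change −0.04, adjusted p = 0.920, limma), and overlaps Apobr. Its partner Ebi3 was higher, at 3.09 ± 0.421 and 2.80 ± 0.632 FPKM, and no relation between the subunits passed the threshold (r = 0.31 in Control and −0.08 in treated tumours, permutation p = 0.413 and 0.828, rho = −0.06 and −0.15, permutation p = 0.891 and 0.681, n = 10 each). Without the 2 libraries farthest from the median of Il27, r was −0.70 and −0.28, so the sign in Control rested on those libraries. Il12b and Ifng, the interferon induced through interleukin 12, gave r = −0.12 in Control (rho = −0.32, permutation p = 0.743 and 0.366, n = 10) and r = 0.68 in treated tumours (rho = 0.69, permutation p = 0.0310 and 0.0335, n = 10, adjusted p = 0.0620 and 0.0670). Without the 2 libraries farthest from the median of Il12b, r was 0.03 and 0.70, and the difference between the groups was not tested.

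The interleukin 10 family combined abundant receptors with a scarce ligand. Il10rb, the shared chain, was nearly constant at 33 ± 2.78 and 33.9 ± 2.54 FPKM (SD, n = 10 each, log2 fold change 0.04, 95% interval −0.07 to 0.15, adjusted p = 0.786, limma). Il10ra, the private chain on leukocytes, had 15.5, 21.4 and 26.3 against 15.3, 21.2 and 27.4 FPKM (−0.01, 95% interval −0.22 to 0.20, adjusted p = 0.976, limma). Il10 itself, an anti-inflammatory cytokine of macrophages and regulatory T cells, had 0.183, 0.610 and 1.61 FPKM in Control and 0, 0.421 and 0.637 in treated tumours. In 9 of 10 treated libraries it lay below the Control median, with the highest value of all in Control 6. The log2 fold change was −0.28 (SE 0.12, 95% interval −0.54 to −0.03, p = 0.0293, adjusted p = 0.306, limma), and −0.21 without Control 6. It was −0.77 with a pseudocount of 0.1, −0.18 with arrayWeights and −0.19 without the 4 libraries of high Rpph1 and Rmrp share. The 7 macrophage markers, beside this, summed to 1240 to 1760 FPKM in Control and 1090 to 1850 in treated tumours, with a median log2 fold change of 0.03.

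Il20rb, a chain of the interleukin 20 and 24 receptors on epithelial and stromal cells, was among the few genes with higher values. It had 0.889, 1.45 and 1.81 FPKM in Control and 1.34, 1.63 and 2.36 in treated tumours. Above all Control libraries lay 3 treated libraries and the rest overlapped. The log2 fold change was 0.17 (SE 0.08, 95% interval 0.01 to 0.33, p = 0.0379, adjusted p = 0.332, limma), 0.27 with a pseudocount of 0.1 and 0.11 with arrayWeights. Its ligands were at or near 0: Il20 was listed at 0 in all libraries, Il19 in 7 of 10 in each group, and Il24 in 7 and 8. Il22, the epithelial cytokine of type 17 and innate lymphocytes, was listed at 0 throughout.

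Among interleukin 17 genes the receptors were present and the classical ligands were at or near 0. Il17ra, the shared chain, was at 12.7 ± 1.89 and 12.7 ± 1.30 FPKM, with its highest value, 17.4, in Control 3. Il17rc, its partner for interleukins 17A and 17F, was at 13.7 ± 1.81 and 13.9 ± 0.824 (SD, n = 10 each, log2 fold change 0.02, 95% interval −0.10 to 0.15, adjusted p = 0.897, limma). Il17rd, a relative also known as Sef, was at 1.96 ± 0.239 and 1.93 ± 0.230. Il17a was listed at 0 in 8 Control and 9 treated libraries (permutation p = 0.735) and Il17f in 6 and 9.

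Il17d, a family member expressed mainly outside lymphocytes, was the tested ligand with the largest positive value. It had 1.37, 1.80 and 2.80 FPKM in Control and 1.59, 2.52 and 3.93 in treated tumours (lowest, median, highest). Above all Control libraries lay 3 treated libraries, and 1 lay below the Control median. The log2 fold change was 0.31 (SE 0.11, 95% interval 0.09 to 0.54, p = 0.00848, adjusted p = 0.184, limma). In the signalling list downstream of these receptors, 1 of 6 genes was lower and 0 higher, beside 0.383% and 0.461% of all rows. The lower gene was Traf5, an adaptor of this pathway and of tumour necrosis factor receptors. It went from 4.71 ± 0.652 to 3.35 ± 0.395 FPKM (−0.39, SE 0.07, adjusted p = 0.00285, limma). Zc3h12a, an RNase that degrades cytokine transcripts, had −0.15 (adjusted p = 0.238, limma).

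Il34 and Il16 belong to none of these families. Il34, which binds the receptor Csf1r and supports macrophages, was the most abundant ligand (chromosome 8, 110741829 to 110805949). It had 23.9, 25.3 and 30.8 FPKM in Control and 20.8, 22.4 and 26.3 in treated tumours, so that 7 treated libraries lay below all Control libraries and 9 below the Control median. The log2 fold change was −0.18 (SE 0.05, 95% interval −0.28 to −0.08, p = 0.00134, adjusted p = 0.0794, limma), and adjusted p = 0.0452 (limma) without P.T.ATBx 8. Over 32 fits Il34 was called in 2, with adjusted p from 0.0404 to 0.241 (limma). Csf1r was at 79.0 FPKM in Control and 80.9 in treated tumours on average (log2 fold change 0.03, adjusted p = 0.916, limma). Il34 and Csf1r gave r = −0.55 in Control (rho = −0.67, permutation p = 0.0927 and 0.0386) and 0.11 in treated tumours (rho = 0.21, permutation p = 0.749 and 0.561, n = 10 each), with adjusted p from 0.0708 to 0.785. Without the 2 farthest libraries r was −0.44 and 0.60, and on the TPM scale the sign in Control turned, to r = 0.35.

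Fibroblast markers stood beside the lower Il34 as follows. The 6 markers summed to 2480 to 3390 FPKM in Control and 2290 to 3510 in treated tumours, and most of each sum was Col3a1. By log2 fold change 5 of 6 were negative, among them Col3a1 at −0.001, and Pdgfrb was positive at 0.19 (adjusted p = 0.339, limma). Called lower was 1, the matrix proteoglycan gene Dcn (−0.31, adjusted p = 0.00125, limma), beside 0.383% of all rows. The part of fibroblast RNA in the Il34 values was not tested. Il16, a lymphocyte attractant, was steady in Control at 5.29 ± 0.381 FPKM and at 4.92 ± 0.747 in treated tumours (−0.10, adjusted p = 0.557, limma).

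Several receptors varied together from library to library, in parallel with leukocyte RNA. Il10ra followed Ptprc in Control (r = 0.98, permutation p = 1e-05, the smallest these resamples can give, adjusted p = 0.00022, rho = 0.94, n = 10) and in treated tumours (r = 0.92, permutation p = 0.00047, adjusted p = 0.00258, rho = 0.87, n = 10). Il2rg did so as well, at r = 0.93 in Control (permutation p = 9e-05, rho = 0.92, n = 10) and 0.91 in treated tumours (permutation p = 0.00029, rho = 0.89, n = 10). Without the 2 libraries farthest from the median of the receptor gene, these 4 values ran from 0.84 to 0.95. All genes of 1 library share its depth and scaling, which such relations contain.

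Receptors of T cells followed Cd3e, a T cell marker, in part. Il2rb gave r = 0.75 in Control (permutation p = 0.0149, rho = 0.79, n = 10) and 0.90 in treated tumours (permutation p = 0.0009, rho = 0.76, n = 10), and gave 0.70 and 0.74 without the 2 farthest libraries. Il7r gave r = 0.85 in Control (permutation p = 0.00128, rho = 0.94, n = 10) and 0.57 in treated tumours (permutation p = 0.0834, rho = 0.32, n = 10). The value in treated tumours rested on 2 libraries, without which it was −0.28, against 0.88 in Control, and the difference between groups was not tested. Il2ra followed Foxp3, the regulatory T cell factor, in Control (r = 0.81, permutation p = 0.00661, rho = 0.77, n = 10) and not past the threshold in treated tumours (r = 0.45, permutation p = 0.196, rho = 0.32, n = 10). Without the 2 farthest libraries r was 0.57 and 0.52.

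**Figure D4:**
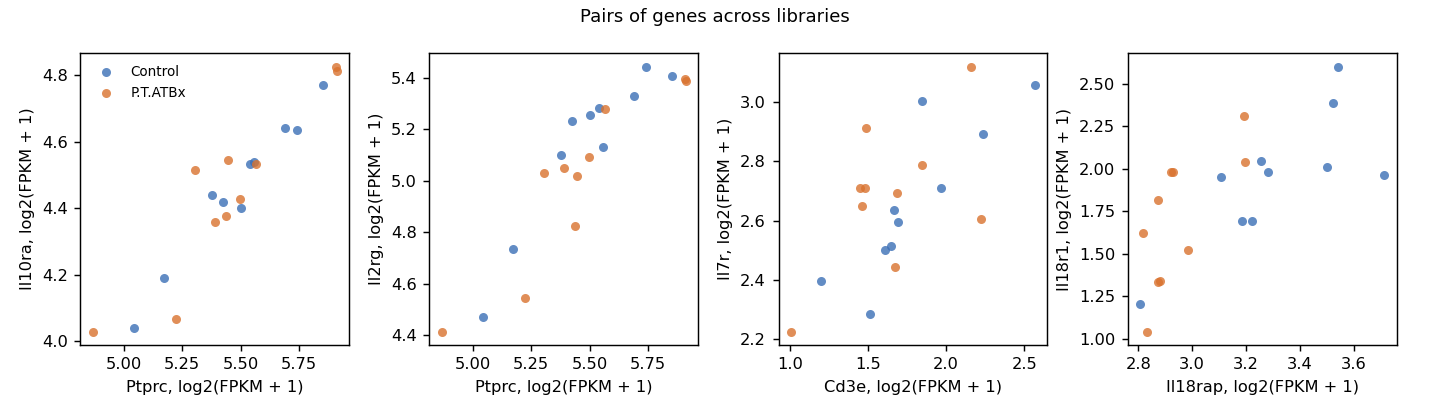
Levels of paired genes, each axis log2(FPKM + 1), 1 point per library (blue Control, orange P.T.ATBx). Il10ra and Il2rg rise with Ptprc in both groups, Il7r rises with Cd3e more tightly in Control, and Il18r1 rises with Il18rap, whose P.T.ATBx points sit to the left.

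Libraries that were lowest for many genes had little Ptprc, while those that were highest for several genes had levels from low to high. Control 2 was the lowest Control library for 13 of the 33 genes and had the least Ptprc of its group, 32.0 FPKM. P.T.ATBx 2 was the lowest of its group for 13 and P.T.ATBx 1 for 10, with 28.2 and 36.4 FPKM of Ptprc. P.T.ATBx 6, at 59.1 FPKM of Ptprc, was the highest of its group for 13 genes. Control 1, the library with the highest Rpph1 and Rmrp share, was the highest Control library for 8 genes with 42.0 FPKM of Ptprc, the fourth lowest of its group, and Control 5, with the most Ptprc, was highest for 5. Control 3 was highest for 5 genes, Il6st, Il4ra, Il11ra1, Il17ra and Il1rl2, and lowest of its group for 6, while its Ptprc was 35.1 FPKM. That library also had the largest sums of epithelial markers, 179 FPKM, and adipocyte markers, 1430 FPKM, and the part of such tissue in these genes was not tested.

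**Figure D5:**
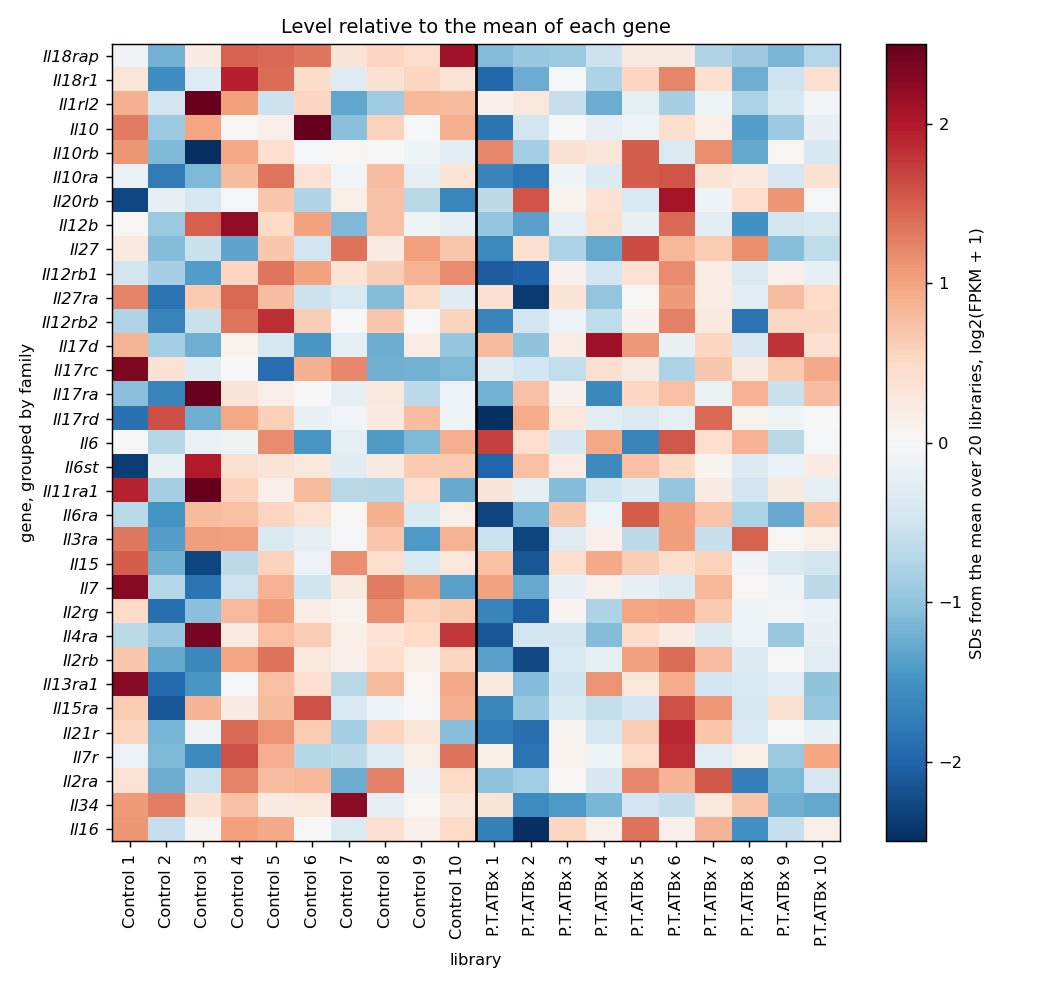
Level of each tested gene (rows, by family) in each library (columns, Control left of the line, P.T.ATBx right), in SDs from the gene's mean over 20 libraries of log2(FPKM + 1), red high and blue low. Control 2, P.T.ATBx 1 and P.T.ATBx 2 are low for many receptors, P.T.ATBx 6 is high, and Control 3 is high for Il1rl2, Il17ra, Il11ra1, Il4ra and Il6st.

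Other genes of the interleukin pathways were likewise mostly uncalled. Of 15 tested partner chains and ligands without an Il name, 0 passed in either direction and 11 were negative, with a median of −0.10. Lif, a gp130 ligand, had −0.19 (adjusted p = 0.168, limma) and Cntf, another, −0.14 (adjusted p = 0.320, limma). Of 10 tested Janus kinases and STATs 0 passed and 9 were negative, among them Stat2 at −0.37 (adjusted p = 0.256, limma). Jak3, the kinase of the common gamma chain, was listed at 0 in all libraries although Il2rg was abundant, so its row gives no level. Of 15 inhibitors of cytokine signalling 0 passed, with 8 negative and 7 positive. Socs6 had 0.17 (adjusted p = 0.103, limma) and Socs1, a feedback inhibitor induced by interferon and gamma chain cytokines, −0.37 (adjusted p = 0.116, limma). Of 8 STAT5 targets 0 passed and 7 were negative, with the cyclin genes Ccnd2 at −0.21 (adjusted p = 0.121, limma) and Ccnd3 at −0.14 (adjusted p = 0.168, limma).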

How the data were processed

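The authors deposited 1 table of FPKM for 20 libraries, 10 per group, made with the reference build mm10 per the submitters' processing notes. Libraries were of stranded total RNA, per the labels' protocols. The sources used here name no aligner, counting tool, strand setting or annotation, so genes that overlap may share reads. The deposited FPKM carry no read totals, so depth is known only relative to the other libraries.

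Values were taken as log2(FPKM + 1). Rows with a mean of at least 0.5 FPKM were fitted in limma 3.58.1 (R 4.3.3) with group as the only term, robust and trended moderation, two-sided, Benjamini-Hochberg over 12788 rows, threshold 0.05. Named genes below the filter had a two-sided permutation test of group means (scipy 1.17.1, 100000 resamples), unadjusted. Correlations were taken within each group of 10, each with a permutation p from 100000 resamples. The fit was tested on simulated data.

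The named genes were the 12 tested members with the smallest p, the 12 with the highest level and 12 preset cytokines. From each pathway list the 2 genes with the smallest p were to be named, and 1 of these is not reported here. Members, lists and tests were chosen with earlier results of these data known. Coordinates and upstream sequences are from RefSeq GRCm38.p6, in which all 72 Entrez numbers matched. Of the list genes, Chil3, Adgre1 and Siglecf stand in the table under older symbols and were matched by number. No batch is labelled, and the library names follow the groups in order, so processing order and group cannot be told apart. The alternatives were other pseudocounts, filters, scalings, weights, moderation, a replicate block, a Ptprc covariate, each library left out, and, chosen after seeing the data, the 4 libraries with the highest Rpph1 and Rmrp share left out.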

Additional observations from a re-analysis of the deposited data

Results flagged for a closer look

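In 78 gene and group combinations of 10 libraries, 7 had 1 library separated from the others by an unusually wide gap. The cut-off flags about 1 in 20 combinations of normally distributed values. FPKM were used without logs and some genes were mostly at 0, so 7 of 78 cannot be set against that rate. Il17ra was 17.4 FPKM in Control 3, against 13.1 in the next library, and Il1rl2 was 4.35 there, against 2.77. Il15 was 8.48 FPKM in P.T.ATBx 2, the lowest of its group by a gap to 12.2. Il17rd was 1.40 FPKM in P.T.ATBx 1, below the next at 1.85. The other 3 flags concern genes listed at 0 in many libraries: Il12a was 0.221 FPKM and Il17a 0.146 FPKM in Control 10, and Il17a was 0.0618 FPKM in P.T.ATBx 9, the only library of that group above 0.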

How the results depend on the processing

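Over 31 alternatives, the 22 named and tested genes gave 679 fold changes, of which 655 kept direction and side of the threshold. Genes called lower numbered 1 with quantile normalization, 2 with arrayWeights, 1 with the replicate block, 1 with the Ptprc covariate, and 0 to 1 on leaving out a library. Genes called higher numbered 1 with the replicate block and 0 otherwise. These were Il18rap, Il34 (arrayWeights, and without P.T.ATBx 8) and Il17d (block). Calls over all rows numbered 108, and 49 on the TPM scale, 306 with arrayWeights, 221 with the Ptprc covariate, 69 (without P.T.ATBx 4) to 193 (without Control 1) on leaving out a library, and 67 without the 4 libraries of high Rpph1 and Rmrp share. Same-numbered libraries correlated from −0.315 to 0.393, over 0.1 in 5 of 10 pairs, and 3 of 10 libraries matched their own number best. This check cannot settle whether the numbers pair libraries. With the block, Il18rap had adjusted p = 0.0191 and Il17d adjusted p = 0.0466 (limma). Signs turned only for small values: Il10ra was 0.017 with the Ptprc covariate and 0.006 without those 4 libraries, where Il15 was −0.036 and Il27 0.035. On leaving out 1 library Il10ra ran from −0.058 to 0.035, Il13ra1 from −0.075 to 0.002, Il17rc from −0.003 to 0.060, Il15 from −0.028 to 0.112 and Il27 from −0.085 to 0.006. On the TPM scale Il27 with Ebi3 in P.T.ATBx gave r = 0.120 and Il34 with Csf1r in Control 0.347, while Il12b with Ifng in P.T.ATBx passed (r = 0.722, adjusted permutation p = 0.0353). With a pseudocount of 0.1, Il18r1 with Il18rap in P.T.ATBx no longer passed (adjusted permutation p = 0.0547). The causes were not tested. Read totals being unknown, no detection limit can be given for genes listed at 0.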
